A study of Mus musculus with 12 samples.

Results

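The genes described here are the cytosolic ribosomal protein genes in 4T1 cells, which come from a mouse mammary carcinoma of the triple-negative kind. They were chosen by name: rows of the deposited table marked protein_coding whose symbol starts with Rpl or Rps followed by a digit or a p, with the Rps6k kinases left out. The rule found 94 of the 78317 genes in the table. By their symbols, 46 encode core proteins of the large subunit (3 of them the stalk proteins Rplp0, Rplp1 and Rplp2) and 30 encode core proteins of the small subunit. A further 8 are paralogs, 9 are retrocopies, which are gene copies made from a processed transcript, and 1, Rps19bp1, encodes a binding partner of a ribosomal protein and no subunit of the ribosome. After a filter on low counts 89 of the 94 were tested, among 14012 genes in all.

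There were 4 groups of 3 biological replicates each: control 4T1 cells untreated, control cells with 5 ng/ml TGFβ1 for 4 days, PBRM1 KO cells untreated, and PBRM1 KO cells with the same TGFβ1. PBRM1 carries several bromodomains and belongs to PBAF, a SWI/SNF complex that remodels chromatin. TGFβ1 acts on cells through SMAD proteins and can shift epithelial cells to a mesenchymal state. All samples are 4T1 cells grown in the same medium, and they differ in PBRM1 and TGFβ1 as given. The samples' titles name the untreated ones as 0h, so the cytokine and the time in culture cannot be told apart, and whether the KO cells are 1 clone or a pool is not stated in the labels. Messenger RNA was primed on its poly(A) tail and read near the 3′ end, with 1 count per molecular identifier, and library totals ran from 9265693 to 11250850 counts.

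Levels are given as CPM, the count divided by the library total and scaled up. In control cells Pbrm1 itself stood at 328, 261 and 258 CPM untreated and 290, 292 and 276 CPM treated. In KO cells the values were 245, 207 and 222 CPM untreated and 274, 233 and 222 CPM treated. A count at the 3′ end does not test a deletion elsewhere in a gene, so these values do not check the KO label. The epithelial markers Krt8 (572 to 916 CPM), Krt18 (711 to 1008), Krt19 (22.4 to 75.7), Epcam (163 to 270) and Cdh1 (124 to 297) were present in every library, and their sum was 2304 to 2401 CPM in untreated control, 1623 to 1820 in TGFβ1 control, 2191 to 2350 in untreated KO and 1893 to 1961 in TGFβ1 KO libraries. The 5 leukocyte markers held 1 to 6 counts each over all 12 libraries, and the 4 endothelial markers summed to 1.28 CPM or less in every library. The 4 fibroblast markers summed to 14.3 to 25.8 CPM in untreated and 17.0 to 64.6 CPM in TGFβ1 libraries, and their part in the results below was not tested.

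The cytosolic ribosome makes nearly all proteins encoded in the nucleus. Its proteins are needed in fixed proportion, and their messenger RNAs are among the most abundant in growing cells. Most of these messengers begin with a terminal oligopyrimidine (TOP) tract, a C followed by a run of pyrimidines, through which the mTORC1 kinase and the RNA-binding protein LARP1 control their translation and stability. Several members have paralogs used in particular tissues, and each has many processed pseudogenes, so short reads from these genes often match more than 1 place in the genome.

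The TOP tract is the sequence the family is known for, so start sequences of 8 members, taken from RefSeq (GRCm38.p6), are shown. In 6 of them a tract begins within 10 bases of the annotated start, and in 2, Rpl41 and Rpl11, none does. A tract farther from that start is not marked. Each runs from 10 bases before the annotated start into the transcript, and the capitals mark the longest tract of a C with at least 4 following pyrimidines that begins within 10 bases of that start. Rpl14 and Rpl41 are the 2 members called lower by edgeR with TGFβ1 in control cells (2.25% of 89, against 2.91% of all tested genes). Both calls depended on single libraries, as given below. The others stand for the stalk (Rplp2), the S6 kinase substrate (Rps6), the 5S particle (Rpl11) and a paralog (Rpl22l1). Rpl38 has a tract exactly at the start, and Rpl15 had the lowest value in untreated KO against control cells. The deposited counts use build mm39, so these coordinates serve only to place the sequences.
Rpl14, chr9:120571507-120571536, plus strand: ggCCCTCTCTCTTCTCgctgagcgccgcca
Rpl41, chr10:128549149-128549178, minus strand: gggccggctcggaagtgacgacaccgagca
Rplp2, chr7:141447641-141447670, plus strand: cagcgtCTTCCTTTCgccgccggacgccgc
Rps6, chr4:86857348-86857377, minus strand: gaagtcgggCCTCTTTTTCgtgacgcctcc
Rpl11, chr4:136053374-136053403, minus strand: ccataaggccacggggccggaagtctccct
Rpl22l1, chr3:28805498-28805527, plus strand: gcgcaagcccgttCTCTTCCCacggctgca
Rpl38, chr11:114668570-114668599, plus strand: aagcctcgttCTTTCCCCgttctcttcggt
Rpl15, chr14:18270967-18270996, minus strand: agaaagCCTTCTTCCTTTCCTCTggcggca

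Of the 94 members, 66 matched the promoter table by symbol. A gene with more than 1 start in the table, as for 10 of these members, was counted where any of its starts held the motif. A C with at least 4 following pyrimidines stood at the annotated start of 14 of the 66 (21.2%), against 3.01% of all 27025 genes in the table. Runs that had already begun before the start were counted too, so these are not all tracts that begin there. Such a C was found within 10 bases of the start in 41 of the 66 (62.1%), against 34.4% of all genes. Within 50 bases it was found in 64 of the 66 (97.0%), against 79.7% of all genes. In these windows, too, a run may have begun farther upstream. Other short motifs, picked afterwards, were also more frequent: CCGGAAG on either strand of the 300 bases was found in 37.9% of members and 9.93% of all genes, AAGATGGC on either strand in 9.09% and 3.19%, and CTTTCC within 50 bases of the start on the given strand, which overlaps many of the tracts, in 31.8% and 5.43%. TATAAA in the 50 bases before the start on the given strand was found in 1.52% of members and 3.15% of all genes. A match is a description of these letters and not a site.

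Reads shared between genes were the rule in this family. Fractional counts, in which a read appears to have been split between genes, occurred in at least 10 of the 12 libraries in 79 of the 94 members (84.0%), and in 52 of them in all 12 libraries. Among the 13923 other tested genes the share was 11.8%. A further 305 rows were pseudogenes named after a member, and together they held 0.991% to 1.21% of all counts, or 8.32 to 8.56 counts per 100 counts in members. For single members the load was uneven: pseudogenes named after Rps6, the small subunit protein phosphorylated by S6 kinase, held 64.5 counts per 100 of its own, and those named after Rps18 held 56.4. The values below are therefore those of a gene with part of the reads of its copies.

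The tested core genes of the large subunit ran from 8.04 CPM on average over 12 libraries (Rpl29) to 8880 CPM (Rplp1), and 29 of the 46 had at least 1000 CPM. Those of the small subunit ran from 541 CPM (Rps6) to 4678 CPM (Rps26), and 25 of the 30 had at least 1000 CPM. These are counts at 3′ ends and are not divided by length, so they are not ranked here. The 5 members left untested were Rpl3l, the striated muscle form of Rpl3, which held no count in any library, Rps4l with 1 count, Rplp1rt with 0.25, Rps23rg1 with 26.3 and Rpl10l, a testis form of Rpl10, with 53.5 counts in all 12 libraries together. No count for Rpl3l allows a level of up to 0.267 to 0.324 CPM, the worth of 3 counts in a library.

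Summed over all 94 genes, ribosomal protein messengers made up 12.8%, 14.0% and 14.3% of all counts in control cells before treatment and 12.4%, 12.3% and 12.7% after it. The lowest untreated value lay just above the highest treated one, so these groups did not overlap. With mitochondrially encoded counts left out of the total the shares were 13.61%, 14.92% and 15.2% before and 13.16%, 13.08% and 13.62% after treatment, and the groups overlapped. In PBRM1 KO cells the shares were 12.6%, 14.1% and 13.2% untreated and 11.8%, 12.8% and 13.4% with TGFβ1, and the groups overlapped. The means were 13.7% ± 0.767, 12.5% ± 0.241, 13.3% ± 0.719 and 12.7% ± 0.805 (SD, n = 3) in the same order. The Wilson 95% interval of each share extended at most 0.0224 percentage points to either side and covers counting error only, so the spread between replicates was far wider than counting error. A share is relative to all other messengers of the library, and in these bulk samples fewer cells that express a gene and less of its RNA per cell cannot be told apart.

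Both subunits moved together. Counts in genes named Rps, per count in genes named Rpl, were 0.702 ± 0.0146 in untreated control, 0.703 ± 0.00721 in TGFβ1 control, 0.695 ± 0.0106 in untreated KO and 0.703 ± 0.00647 in TGFβ1 KO libraries (SD, n = 3), and single libraries ran from 0.683 to 0.716. The 3 stalk proteins, which form the arm that recruits elongation factors, held 1.67% to 1.91% of all counts.

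**Figure D1:**
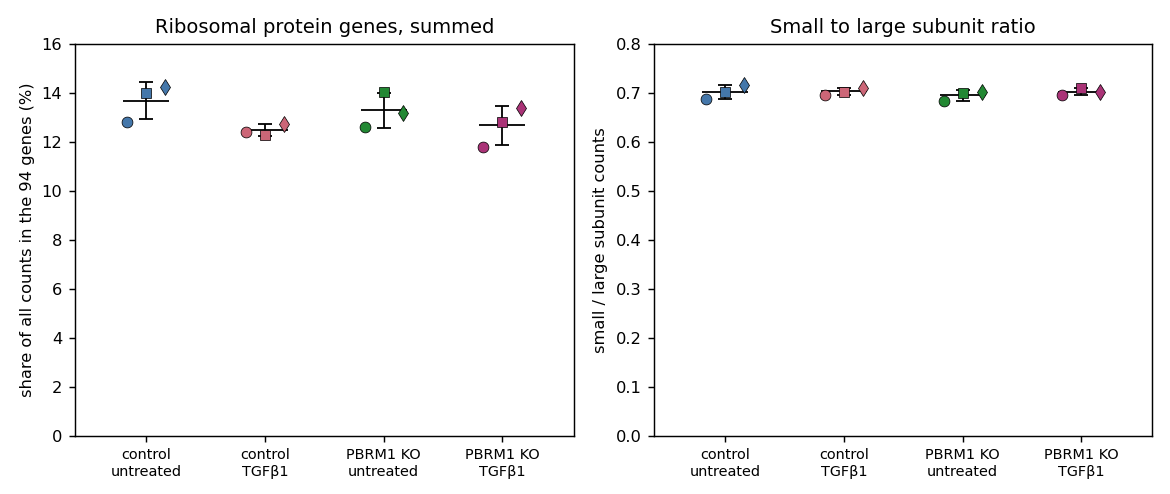
Share of all counts in the 94 ribosomal protein genes (left, percent) and counts in Rps genes per count in Rpl genes (right) in each library by group; circles, squares and diamonds are replicates 1, 2 and 3, and bars are the mean and SD of 3. The control libraries with TGFβ1 lie at 12.3% to 12.7%, below the untreated ones at 12.8% to 14.3%, while the ratio stays between 0.683 and 0.716.

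In 3 of the 4 groups single libraries stood lowest or highest for most of the family at once. In untreated control cells, replicate 1 had the lowest level of the 3 libraries in 85 of 89 tested members (95.5%), against 37.0% of all tested genes, and the exceptions were Rpl39l, Rplp1, Rplp2 and Rps2. In KO cells with TGFβ1, replicate 1 was lowest in 86 of 89 (96.6%, against 31.4% of all tested genes), with Rpl39l, Rpl7l1 and Rps15 as exceptions. Replicate 3 of that group was highest in 80 of 89 members (89.9%), against 37.9% of all tested genes. In untreated KO cells replicate 2 was highest in 72 members (80.9%, against 32.6% of all tested genes). Control cells with TGFβ1 were more divided: replicate 2 was lowest in 49 members and replicate 1 in 37, and replicate 3 was highest in 54 and replicate 1 in 31.

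The median level of the 89 members, relative to the untreated control mean and on the log2 scale of TMM-scaled CPM, was -0.14, 0.05 and 0.08 in control cells before treatment and -0.14, -0.18 and -0.09 after it. In KO cells it was -0.09, 0.03 and -0.05 untreated and -0.24, -0.09 and -0.02 with TGFβ1. Unlike the summed shares, these medians of control groups did overlap, through untreated replicate 1. The medians of all tested genes stayed within 0.01 of 0 in every library, and the share of mitochondrially encoded counts ran from 5.45% to 6.87%. The SD of the member median between replicates was 0.09 on the log2 scale.

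**Figure D2:**
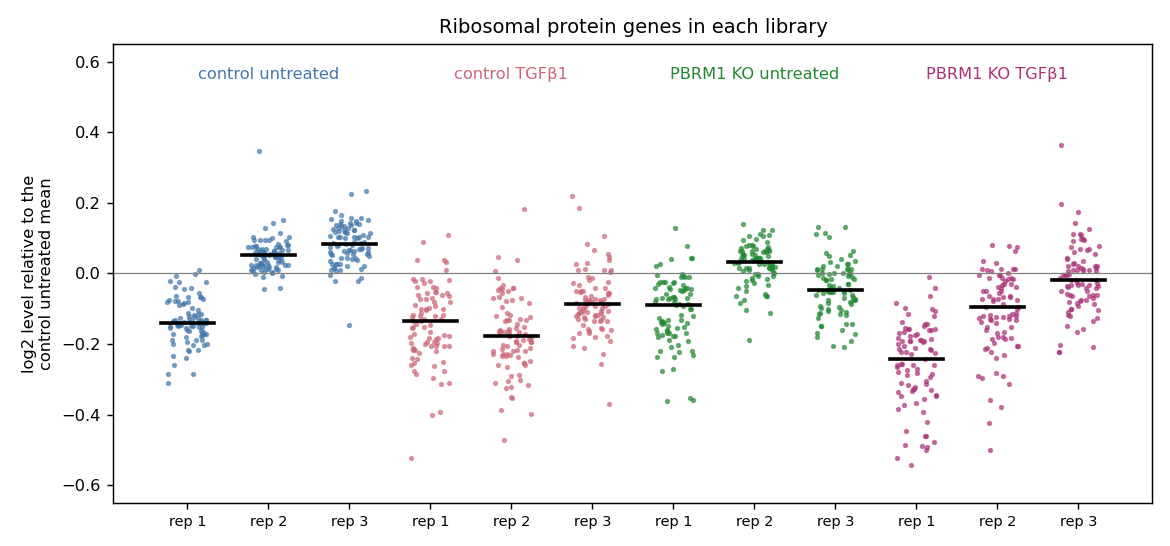
Level of 87 tested members in each of the 12 libraries, as the log2 difference from the gene's mean in untreated control libraries (1 point per gene, black bars the median of all 89; Rpl39l and Rpl27rt, near 1 CPM, are not drawn). Whole libraries move up or down, with medians from -0.24 in KO TGFβ1 replicate 1 to 0.08 in untreated control replicate 3.

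This shared movement ran through most members. The deviation of a gene from its group means correlated with the mean deviation of the other members at a median of 0.88 over the 12 libraries (quartiles 0.78 and 0.93), and 62 of 89 members lay above 0.8. The median of the 13923 other tested genes against the member mean was -0.05. The points share libraries, depth and scaling, so these correlations are a description. The 7 members below 0.5 were Rpl39l, Rpl21, Rps19bp1, Rpl7l1, Rpl10-ps3, Rps2 and Rps15, and Rplp1 and Rplp2 followed at 0.55 and 0.62. Rps13 (0.99), Rpl26 (0.97) and Rpl32 (0.97) followed the family most closely. Between replicates the median coefficient of variation of a member was 4.94% to 7.61% by group, near the 6.21% to 8.42% of the 1840 tested genes with at least 100 CPM.

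The first comparison asks how control cells responded to TGFβ1. Of the 89 members 84 had a log2 fold change below 0, against 49.7% of all tested genes, and the median was -0.13 against 0.00 for all tested genes. The SD of the member medians of single libraries between replicates was 0.09, as given above. That is not the spread of a fold change between groups, and the members do not move independently. With edgeR's quasi-likelihood test and a Benjamini-Hochberg adjusted p below 0.05, 2 members fell, Rpl14 and Rpl41, and 0 rose, also at an unadjusted p below 0.05 and with DESeq2 and limma-voom. In this comparison 2.91% of all tested genes fell and 5.89% rose, so 2 of 89 (2.25%) is near the background. At an unadjusted p below 0.05, 18 members were lower (20.2%), against 10.2% of all tested genes. The groups did not overlap in 31 members (34.8%), all lower with TGFβ1, against 12.2% of all tested genes lower and 14.0% higher.

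Rpl14 (ENSMUSG00000025794), a protein of the large subunit, stood at 2458, 2505 and 2480 CPM in control cells before treatment and at 2005, 1964 and 2265 CPM after it. All 3 treated libraries lay below all untreated ones, and the untreated ones were close together. Its log2 fold change was -0.26 ± 0.07 (SE), with an adjusted p of 0.0441 by edgeR's quasi-likelihood test with Benjamini-Hochberg adjustment. Over the other settings tried, its adjusted p ran from 0.00205 to 0.192.

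Rpl41 (ENSMUSG00000093674) encodes the smallest protein of the large subunit, a short basic peptide at the interface of the subunits. Untreated control libraries held 3492, 4332 and 4803 CPM, and treated ones 3172, 3223 and 3199 CPM. The treated libraries were close together and all lower, and the spread lay in the untreated ones. Its log2 fold change was -0.40 ± 0.12, with an adjusted p of 0.048 by edgeR's quasi-likelihood test with Benjamini-Hochberg adjustment, and the range over the other settings was 0.000944 to 0.193. Rpl41 was the member with the lowest fold change, and no tract begins within 10 bases of its annotated start.

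The next lowest were Rps19bp1, at 44.8, 45.3 and 43.8 CPM before and 38.9, 28.4 and 42.0 CPM after treatment, and Rps27l, a paralog of Rps27 that is a known p53 target, at 762, 999 and 990 CPM before and 697, 745 and 836 CPM after it. Neither passed (edgeR adjusted p = 0.206 and 0.235, Benjamini-Hochberg). The 5 members above 0 were Rpl22l1 (0.15 ± 0.13), Rpl7 (0.02 ± 0.08), Rps4x (0.01 ± 0.10) and the 2 genes near 1 CPM, Rpl27rt and Rpl39l, and all 5 differences were within about 1 SE of 0.

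**Figure D3:**
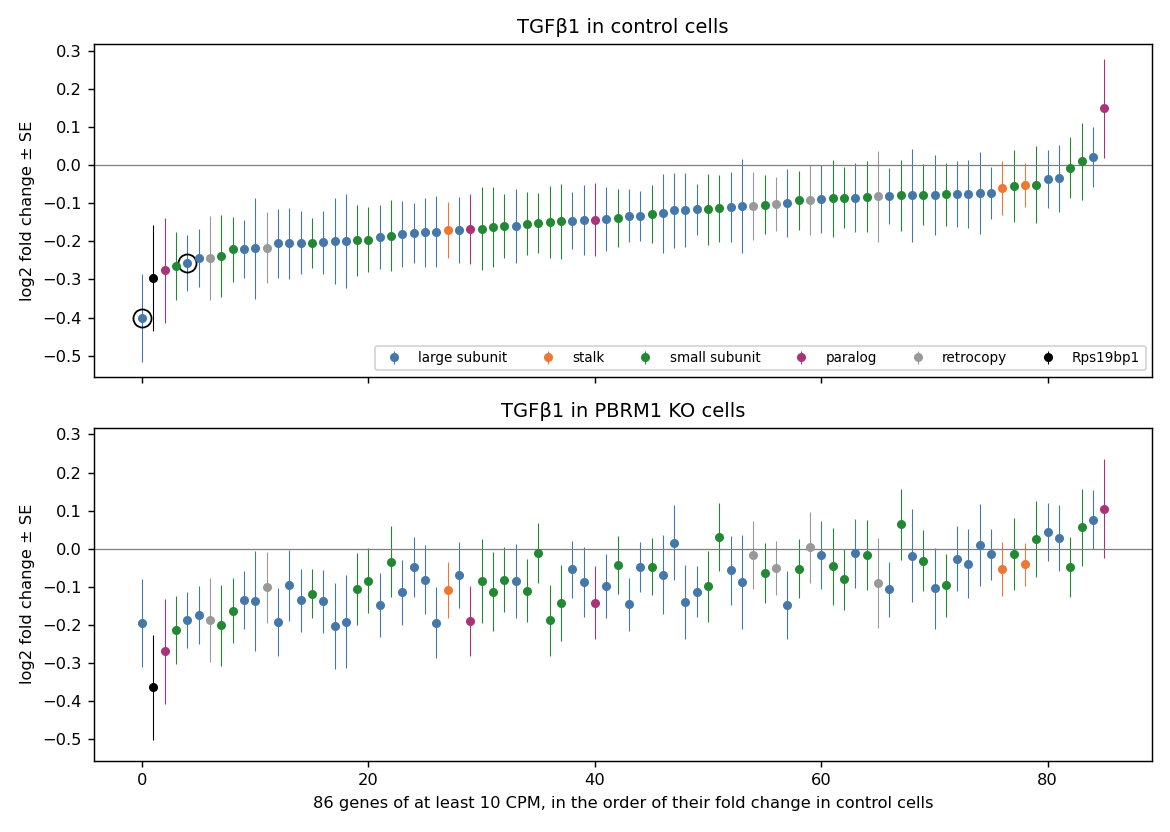
Log2 fold change with TGFβ1 ± SE of 86 members with at least 10 CPM in control cells (top) and PBRM1 KO cells (bottom), in the order of the control values and coloured by class; large open circles mark edgeR adjusted p below 0.05. Most values lie below 0 in both panels, and 2 genes are circled in control cells, Rpl41 (-0.40) and Rpl14 (-0.26), and none in KO cells.

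By role, the core large and small subunit genes were alike: the median log2 fold change was -0.14 over 46 large subunit genes (45 below 0) and -0.13 over 30 small subunit genes (29 below 0). Of the stalk genes, Rplp1 and Rplp2 lay nearer to 0 than these medians and Rplp0 did not. Rplp1 stood at 9173, 9099 and 8731 CPM before and 8794, 8813 and 8481 CPM after treatment, a log2 fold change of -0.05 ± 0.06, and Rplp2 had -0.06 ± 0.07. Rplp0, the scaffold of the stalk, had -0.17 ± 0.07, with no overlap between the groups and an adjusted p of 0.173 by edgeR (Benjamini-Hochberg).

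The 5S particle proteins Rpl5 and Rpl11, which bind MDM2 when they are not built into ribosomes, had log2 fold changes of -0.08 ± 0.11 and -0.21 ± 0.09. Rpl11 went from 1641, 1858 and 1829 CPM to 1579, 1436 and 1614 CPM, so its treated libraries were all below the untreated ones, and did not pass (edgeR adjusted p = 0.176). Rps6 had -0.08 ± 0.08 and Rps27a, made as a fusion with ubiquitin, -0.15 ± 0.08. Members with a pyrimidine tract within 10 bases of the annotated start had a median of -0.12 (38 genes), and members without one -0.13 (25 genes). This split does not sort TOP messengers from others. Within 50 bases 64 of 66 members had a tract, 34.4% of all genes met the rule of 10 bases, and 26 tested members had no promoter entry. Whether the tract bears on the response was therefore not tested.

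The call depended on single libraries. Left out in turn, control TGFβ1 replicate 3 and KO TGFβ1 replicate 3 each left 3 members lower and KO TGFβ1 replicate 1 left 2. Control untreated replicate 1 and KO untreated replicate 2 left 1 (Rpl41), and each of the other 7 libraries left 0. Without both TGFβ1 replicate 3 libraries, in which the ribosome biogenesis genes below also stood apart, 10 members were lower, among them Rpl14, Rpl41, Rps15, Rps2 and Rpl36. The libraries left out there were highest of their group in 54 (control) and 80 (KO) of 89 members. Leaving them out therefore lowers the treated means of most members. Without control untreated replicate 1 the median fell to -0.22 and 46 members were lower at an unadjusted edgeR p below 0.05. That library was lowest of its group in 85 of 89 members, so leaving it out raises their untreated mean. Without control untreated replicate 3, highest in 57 members, the median was -0.09 and 5 members were lower at that threshold. The share of all tested genes is not given for the fits with libraries left out, so their counts have no background.

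The next comparison asks the same of PBRM1 KO cells. The median log2 fold change was -0.09, with 77 of 89 members below 0, against 50.0% of all tested genes, and 76 members were below 0 in both genotypes. With edgeR's quasi-likelihood test and Benjamini-Hochberg adjustment 0 members passed in either direction, and 0 with DESeq2 and limma-voom, where 3.72% of all tested genes fell and 7.65% rose. At an unadjusted p below 0.05, 5 members were lower (5.62%, against 11.5% of all tested genes), namely Rpl11, Rpl14, Rpl36, Rps15 and Rps19bp1. The groups did not overlap in 11 members, all lower (12.4%, against 13.7% of all tested genes), and 9 of the 11 were also without overlap in control cells. For the joint counts over both genotypes, 76 and 9, the share of all tested genes is not given here.

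Deviations of same-numbered KO libraries correlated at 0.201, 0.139 and 0.202 over all tested genes, and libraries of different numbers were not compared. Replicate 1 had the lowest member median in both KO groups, while the highest was replicate 2 untreated and replicate 3 with TGFβ1. With the replicate number as a block 4 members fell: Rps27l (-0.28 ± 0.08), Rps19bp1 (-0.37 ± 0.12), Rps15 (-0.22 ± 0.07) and Rpl14 (-0.19 ± 0.06). Their edgeR adjusted p-values (Benjamini-Hochberg) were 0.0331, 0.0406, 0.0407 and 0.047 in that order. Without KO TGFβ1 replicate 3 there were 5 (Rpl14, Rpl9, Rps19bp1, Rpl11 and Rpl7a), and without control TGFβ1 replicate 2 there was 1 (Rps19bp1). Without both TGFβ1 replicate 3 libraries there were 9. KO TGFβ1 replicate 3 was highest of its group in 80 of 89 members, so leaving it out lowers their treated mean. The share of all tested genes called is not given for these fits or the block, so these counts have no background. The member median was -0.15 without KO TGFβ1 replicate 3, -0.14 without KO untreated replicate 1, -0.05 without KO untreated replicate 2 and -0.02 without KO TGFβ1 replicate 1.

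Rps15, a small subunit protein near the decoding site, gave 1985, 1960 and 2006 CPM in KO cells before treatment and 1736, 1625 and 1810 CPM after it, and the groups did not overlap. In control cells it held 2035, 2024 and 2235 CPM without and 1893, 1525 and 1832 CPM after TGFβ1, also without overlap. The log2 fold changes were -0.21 ± 0.09 in KO and -0.26 ± 0.09 in control cells, with adjusted p-values of 0.142 and 0.0852 by edgeR's quasi-likelihood test (Benjamini-Hochberg).

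For Rpl14 the untreated KO libraries gave 2454, 2495 and 2399 CPM and the treated ones 2129, 2116 and 2260 CPM. These too were separate, at a log2 fold change of -0.19 ± 0.07 and an edgeR adjusted p of 0.117. Rpl41 held 3526, 4264 and 3624 CPM untreated and 3057, 3421 and 3560 CPM treated in KO cells, and these overlapped (-0.20 ± 0.12, edgeR adjusted p = 0.303).

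Rps19bp1 was the lowest in KO cells at -0.36 ± 0.14, from 46.9, 39.4 and 43.1 CPM to 31.4, 31.8 and 38.1 CPM. Rps27l followed at -0.27 ± 0.14, from 748, 906 and 798 CPM to 581, 683 and 784 CPM, where 1 treated library lay within the untreated range. Among genes of at least 10 CPM, Rpl22l1 (0.11 ± 0.13), Rpl7 (0.08 ± 0.08) and Rps29 (0.06 ± 0.09) were the highest, and none passed.

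**Figure D4:**
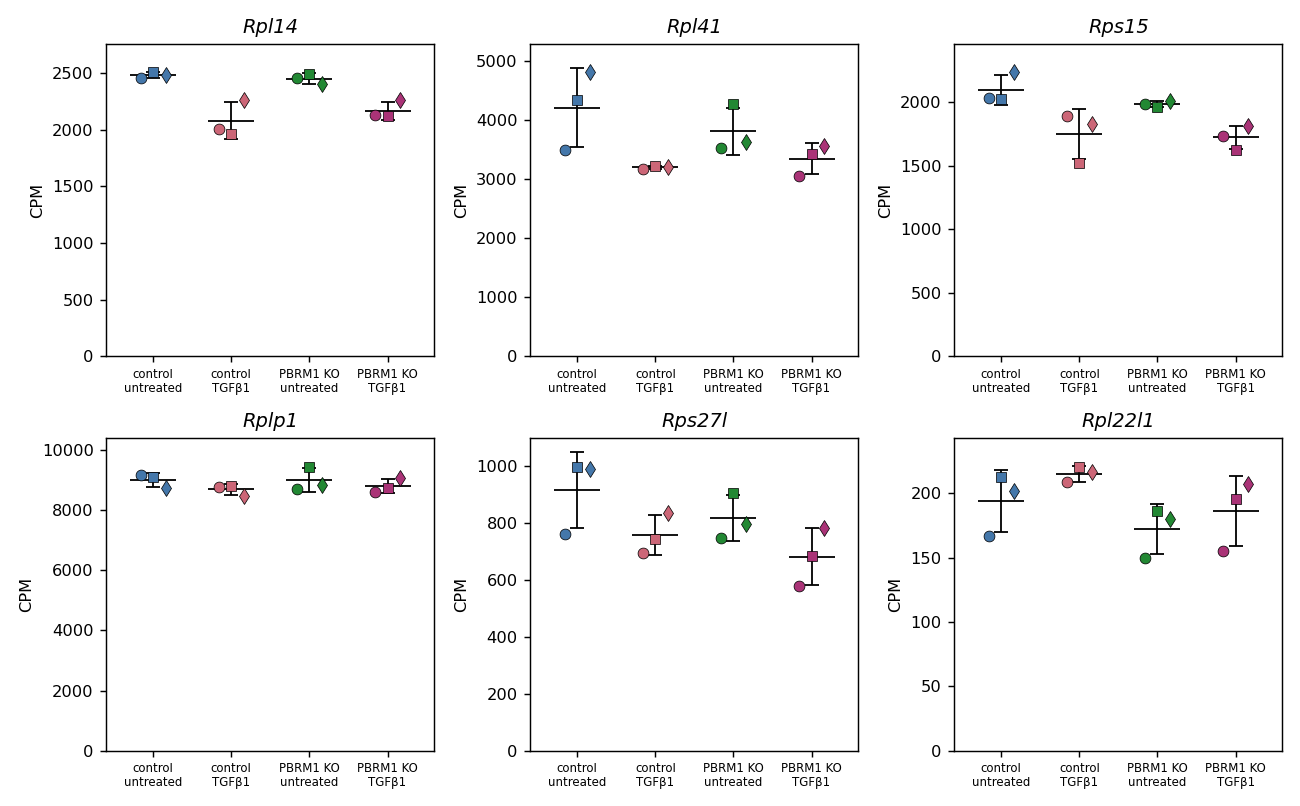
CPM of 6 members in each library by group; circles, squares and diamonds are replicates 1, 2 and 3, and bars are the mean and SD of 3. Rpl14 and Rps15 are lower in every TGFβ1 library than in every untreated library of the same genotype, Rplp1 stays between 8481 and 9458 CPM, and Rpl22l1 is lower in KO than in control cells with TGFβ1.

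No member passed the test between genotypes. In untreated cells the median difference, KO minus control, was -0.04 on the log2 scale, with 70 of 89 members below 0 (50.8% of all tested genes). With TGFβ1 the median was 0.02, with 32 below 0 (50.6% of all tested genes), and it was -0.01 without both TGFβ1 replicate 3 libraries. Leaving out single libraries also turned the sign of these medians: the untreated one was 0.00 without KO untreated replicate 1, and that with TGFβ1 was -0.03 without KO TGFβ1 replicate 3. With edgeR's quasi-likelihood test 0 members passed in either comparison, at an adjusted or an unadjusted p below 0.05, and DESeq2 and limma-voom also called 0. Of all tested genes, 3.24% were higher and 4.36% lower at an unadjusted p below 0.05 in untreated cells, and 4.08% and 4.44% with TGFβ1. At an adjusted p below 0.05, untreated, 0.236% of all tested genes were lower and 0.0428% higher in KO cells; with TGFβ1, 0.2% were lower and 0.0714% higher. With the replicate number as a block 0 members passed in either comparison.

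The members farthest from 0 in untreated cells were Rpl15 (-0.21 ± 0.12), Rpl34 (-0.20 ± 0.12) and Rps24 (-0.19 ± 0.10) on the low side and Rpl7l1 (0.11 ± 0.09), Rpl22 (0.06 ± 0.08) and Rpl11 (0.06 ± 0.09) on the high side. Groups without overlap were 2 lower, Rpl7 and Rps15 (2.25%, against 8.71% of all tested genes), and 1 higher, Rpl7l1 (1.12%, against 6.95%). Rpl34 held 2047, 2564 and 2640 CPM in control and 1874, 2372 and 2083 CPM in KO cells. Untreated replicate 1 was the lowest in both, and the ranges overlapped.

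With TGFβ1, Rpl22l1 (-0.22 ± 0.13), Rpl34 (-0.18 ± 0.12) and Rps27l (-0.16 ± 0.14) were lowest and Rps20 (0.14 ± 0.09), Rps29 (0.14 ± 0.09) and Rpl22 (0.13 ± 0.08) highest, with edgeR adjusted p-values (Benjamini-Hochberg) of 0.714 to 0.825. Groups without overlap were Rpl22l1 and Rps3a1, both lower (2.25%, against 5.61% of all tested genes), and 3 members, Rps2 among them, that were higher (3.37%, against 6.28%).

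The difference between the TGFβ1 responses, KO minus control, had a median of 0.06 over the members and of 0.00 over all tested genes, with 15 of 89 members and 49.3% of all tested genes below 0. Its values for single members carried a median SE of 0.13. With edgeR's quasi-likelihood test 0 members differed, at an adjusted or an unadjusted p below 0.05, and 0 with DESeq2 and limma-voom; over all tested genes 0.0% passed in either direction after adjustment, and 0.956% were higher and 0.806% lower before it. For Rpl41 the difference was 0.21 ± 0.16, so its response is not shown to differ between genotypes.

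Paralogs and retrocopies were set against their parent genes library by library. Rpl22l1 can take the place of Rpl22 in the ribosome, and its messenger is restrained by RPL22 protein. In control cells it gave 167, 213 and 202 CPM before and 209, 221 and 217 CPM after treatment, and in KO cells 150, 186 and 180 CPM before and 156, 196 and 207 CPM after it. Rpl22 held 1239, 1348 and 1291 CPM, then 1071, 1119 and 1185, then 1326, 1430 and 1305, and last 1144, 1238 and 1335 CPM. The paralog was thus higher where the parent was lower in the control comparison, without either passing.

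Per 100 counts of Rpl22, Rpl22l1 held 15.0 ± 1.31 in untreated control, 19.2 ± 0.766 in TGFβ1 control, 12.7 ± 1.27 in untreated KO and 15.0 ± 1.22 in TGFβ1 KO libraries (SD, n = 3). The control libraries with TGFβ1 lay above all others, with no overlap with untreated control or with KO cells under TGFβ1. The exact permutation test of 3 against 3 libraries, two-sided, gave p = 0.1 for both, the smallest it allows, and 0.4 after Benjamini-Hochberg adjustment over the 20 paralog tests (5 paralogs, 4 comparisons).

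Rps27l per 100 counts of Rps27 was 61.7 ± 5.41 in untreated control, 54.2 ± 6.45 in TGFβ1 control, 58.4 ± 2.91 in untreated KO and 49.5 ± 6.28 in TGFβ1 KO libraries (SD, n = 3). Control groups overlapped, and the KO groups were just separate, with 56.6 as the highest treated and 56.7 as the lowest untreated value (exact permutation p = 0.1, adjusted 0.4). Rpl7l1, a nucleolar relative of Rpl7, held 3.91 ± 0.0627 counts per 100 of Rpl7 in untreated control and 4.57 ± 0.281 in untreated KO libraries, without overlap (exact permutation p = 0.1, adjusted 0.4). With TGFβ1 it held 3.43 ± 0.510 in control and 3.81 ± 0.348 in KO libraries, which overlapped. The treated KO libraries lay below the untreated KO ones without overlap (exact permutation p = 0.1, adjusted 0.4), and the control groups overlapped. Rpl36al, by contrast, stayed at 15.5 to 17.3 counts per 100 of Rpl36a in all 12 libraries, and Rpl39l, a testis form of Rpl39, stayed near 1 CPM.

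Of the 7 tested retrocopies, 6 kept a nearly fixed ratio to their parents. The other, Rpl27rt, stood at 0.211 to 1.2 CPM, too low for a ratio to its parent Rpl27 to be read, and shared none of the 31-base words described below with it. Rpl35rt held 73.8 to 77.9 counts per 100 of Rpl35 over the 12 libraries, a coefficient of variation of 1.52%, and Rps27rt held 6.68 to 7.11 per 100 of Rps27 (1.88%). For Rpl9-ps6, Rplp2-ps1, Rpl10-ps3 and Rps18-ps6 the coefficient was 3.81%, 3.38%, 4.26% and 4.4%, against 17.0% for Rpl22l1, 13.1% for Rpl7l1, 11.9% for Rps27l and 3.66% for Rpl36al. Only for Rpl36al among these paralogs was it as small as for the retrocopies.

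Over the last 300 bases of the longest transcript in the GRCm38 annotation, 96.3% of the 31-base words of Rpl35rt were also in Rpl35, 93.0% of those of Rpl9-ps6 in Rpl9, 89.6% of Rpl10-ps3 in Rpl10, 89.3% of Rps27rt in Rps27 and 50.4% of Rps18-ps6 in Rps18. None of the words of the 5 tested paralogs was in the parent. Reads at the 3′ end of Rpl35rt, Rpl9-ps6, Rpl10-ps3 and Rps27rt therefore mostly match the parent as well, and for Rps18-ps6 part of them do. The rows of these 5 copies and of their parents are given as uncertain. No transcript of Rplp2-ps1 was found in that annotation, so its words were not compared with Rplp2 and those rows are uncertain too.

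The starts of Rps27 and Rps27rt show the same copying at the 5′ end and are printed for that reason, from RefSeq (GRCm38.p6). Capitals mark the printed part of a run of 38 identical bases, and the bases before it differ.
Rps27, chr3:90213629-90213658, minus strand: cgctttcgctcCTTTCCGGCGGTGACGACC
Rps27rt, chr9:114982720-114982749, minus strand: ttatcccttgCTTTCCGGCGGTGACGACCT

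**Figure D5:**
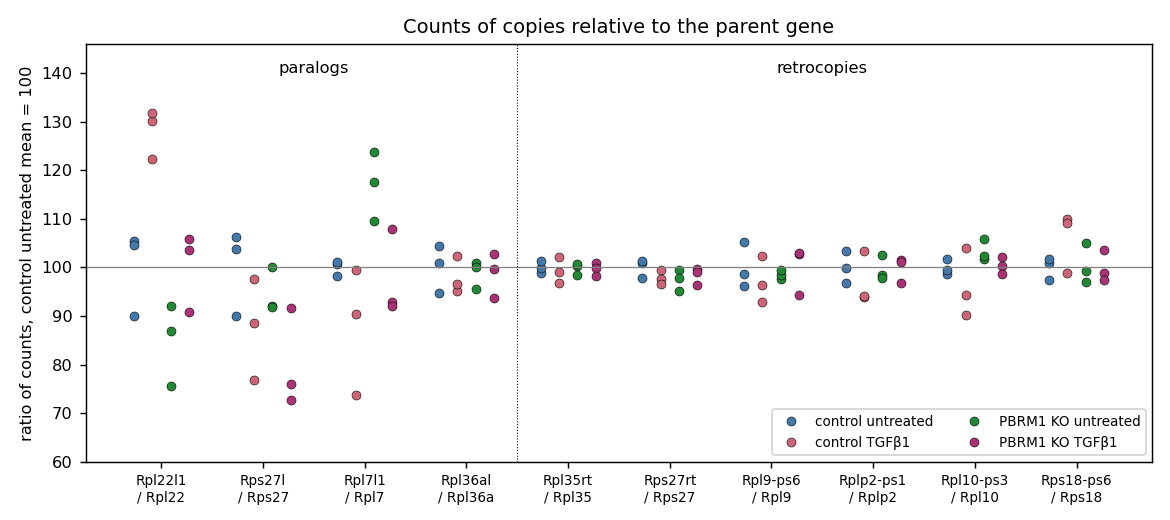
Counts of 4 paralogs and 6 retrocopies per count of the parent gene in each of the 12 libraries (points, coloured by group), scaled to a mean of 100 in untreated control libraries; the vertical axis does not start at 0. Rpl22l1, Rps27l and Rpl7l1 spread by 11.9% to 17.0% (coefficient of variation), and these 6 retrocopies by 1.52% to 4.4%.

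The named pseudogenes followed the members too. Of the 305 rows 137 were tested, and 0 were called by edgeR in any of the 5 comparisons at an adjusted p below 0.05. Their median log2 fold change with TGFβ1 was -0.11 in control and -0.04 in KO cells. For ribosomal proteins outside the name rule the median over 4 genes, among them Fau, Rpsa and Rack1, was -0.09 in control and -0.01 in KO cells, and 0 of 4 passed. Rack1, a scaffold protein on the small subunit, gave 2555, 2715 and 2743 CPM in control cells before and 2790, 2767 and 2817 CPM after treatment, so all treated libraries were higher (0.06 ± 0.08, edgeR adjusted p = 0.695). Fau, which encodes the small subunit protein eS30 as a fusion, gave 1511, 1615 and 1629 CPM in control cells before and 1477, 1326 and 1449 CPM after treatment (-0.16 ± 0.07, edgeR adjusted p = 0.196).

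Other lists of the translation machinery also had medians below 0 with TGFβ1. The 44 tested genes of ribosome biogenesis and RNA polymerase I had medians of -0.21 in control and -0.27 in KO cells, with 0 and 1 called lower, the latter Emg1, a methyltransferase of the small subunit RNA (-0.42 ± 0.12, edgeR adjusted p = 0.0426). Their library medians split by replicate: TGFβ1 replicates 1 and 2 lay at -0.26 to -0.37 relative to untreated control, and replicates 3 at 0.06 in control and 0.02 in KO cells. The medians of the ribosomal protein genes in the same libraries were -0.14, -0.18 and -0.09 in control and -0.24, -0.09 and -0.02 in KO cells. The part of the split in the results above was not tested.

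The 78 mitochondrial ribosomal protein genes, which serve the separate ribosome of mitochondria, had medians of -0.20 and -0.15, with 6 called lower in control cells (among them Mrpl4, Mrpl33 and Mrps18a) and 2 in KO cells (Mrpl54 and Mrpl18). The 29 initiation factors had -0.11 and -0.10, with 0 and 1 called lower, the latter Eif4e, the cap-binding protein (-0.43 ± 0.12, edgeR adjusted p = 0.039). The 16 elongation factors and other TOP messengers had -0.08 and -0.10 with 0 called. In the lists of mitochondrial ribosomal proteins, initiation factors and elongation factors, TGFβ1 replicate 3 also had the highest library median of its group. It was -0.07, -0.01 and 0.04 in control cells and -0.05, -0.02 and 0.06 in KO cells, in that order. In TGFβ1 replicates 1 and 2 these medians ran from -0.35 to -0.03. Of 18 tested TOP and mTORC1 regulators 0 were called. In the p53 and ribosomal stress list, 1 of 11 rose in both genotypes, Cdkn1a, which encodes the cell cycle inhibitor p21: 0.85 ± 0.25 in control and 1.22 ± 0.25 in KO cells, with edgeR adjusted p-values of 0.0497 and 0.00802. In both genotype comparisons 0 genes of these lists were called by edgeR at an adjusted p below 0.05.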

How the data were processed

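The authors' deposited table holds expected counts and CPM per gene, per the file headers, for 12 libraries of 3 biological replicates per group, per the labels. The submitters' processing notes name mm39, edgeR 3.38.4, STAR 2.7.11, Subread 2.1.1 with featureCounts, SAMtools 1.22.1 and fastp 0.24.0; annotation release and handling of shared reads: not given in the sources used here. Counts are whole in 91.8% of cells. The deposited CPM equals count over library total.

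Counts were rounded, filtered with filterByExpr and scaled by TMM. All 12 libraries were fitted with edgeR 4.0.16 in R 4.3.3 (quasi-likelihood test, 1 mean per group, common biological coefficient of variation 12.5%), with Benjamini-Hochberg adjustment over 14012 genes and 0.05 as threshold; the SE of a fold change is its size divided by the root of the F statistic. Fits were checked on simulated data in which genes changed independently and by more than any tested member did with TGFβ1. That check does not cover small shifts shared by the family. Alternatives were other scalings and filters, DESeq2 1.42.0, limma-voom 3.58.1, only the 6 libraries compared, a replicate block, unrounded counts, pseudogenes summed in and libraries left out. Exact permutation tests used scipy 1.17.1.

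Members, lists and alternatives were chosen with earlier results of these data known; the paralog ratio tests, the correlations and the motifs other than the TOP tract were added after these files were analysed. Named are members past the threshold, the 3 largest changes each way of at least 10 CPM, a panel by role, and groups of few genes named after their values were seen. From other lists up to 3 per direction that passed are named. Some single genes are not reported here.

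The labels number biological replicates without naming a shared day. The correlation of deviations between libraries of the same number was 0.201, 0.139 and 0.202 in the KO comparison of TGFβ1, and 0.396, 0.416 and 0.726 between genotypes under TGFβ1. Each lies over 0.1, the mark used here to take pairs from the data. Libraries of different numbers were not compared, so a pairing is not shown.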

Additional observations from a re-analysis of the deposited data

How the results depend on the processing

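No result reversed its called direction. Under every alternative the median fold change of the members moved by less than 0.0915 in all 5 comparisons. That value is the SD of single-library member medians between replicates, taken as a yardstick, and not the spread of a fold change. The small medians between genotypes changed sign without single libraries, with ranges of -0.0973 to 0.0042 untreated and -0.0321 to 0.0784 with TGFβ1, and so did that of the interaction (-0.00839 to 0.119). The count of members called lower with TGFβ1 in control cells, 2, became 1 without a filter on low counts, 1 at 10 CPM or more, 1 with limma-voom, 0 with only the 6 libraries compared, 4 with DESeq2 and 10 without both TGFβ1 replicate 3 libraries, and ran from 0 to 3 with each library left out in turn. In KO cells the count of 0 became 1 without the filter and 9 without both TGFβ1 replicate 3 libraries, and ran from 0 to 5 with each library left out. The share of all tested genes called under each alternative, the block included, is not given here.

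With the replicate number as a block 9 members were lower in control cells and 4 in KO cells; control libraries were not paired by the check (0.258, -0.084 and 0.137), nor were untreated ones (0.149, 0.069 and 0.125). The block changed no count at an adjusted p below 0.05 in the genotype comparisons or the interaction.

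The summed share was 14.6% in untreated control, 13.3% in TGFβ1 control, 14.2% in untreated KO and 13.5% in TGFβ1 KO libraries without mitochondrially encoded counts in the total, where the control groups overlapped, and 14.8%, 13.5%, 14.4% and 13.8% in the same order with named pseudogenes. Depth does not limit the abundant members. For Rpl39l and Rpl27rt, near 1 CPM, it does, and 3 replicates limit the rest.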
